A study of Rattus norvegicus with 6 samples.

Results

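The genes described here are the axon guidance families measured by RNA-seq in rat heart cell cultures: the Eph receptors and their ephrin ligands, the semaphorins and plexins, the Slits and Robos, and the netrins and Unc5 receptors. The members are the protein-coding rows of the deposited table whose symbol begins with one of the family names, a rule that uses no measured value and gave 65 of 33565 rows (22250 of them protein-coding). Of the 65 genes, 35 encode ligands and 30 encode receptors. The libraries came from primary cardiomyocytes of Sprague-Dawley rats at postnatal day 7, grown in medium with 10% fetal bovine serum. The 3 control libraries received vehicle for 24 h, and the 3 progesterone libraries received progesterone, a steroid hormone, at 100 nM for 24 h. Strain, age, medium and duration were the same in both groups, and no genetic change was made in either.

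Guidance proteins were named for steering growing axons, and the same molecules pattern the heart and its vessels. Ephrins are bound to the cell surface, so that an ephrin and its Eph receptor tyrosine kinase meet where cells touch, and both the receptor cell and the ephrin cell can respond. Semaphorins act on plexins, the secreted class 3 members mostly together with a neuropilin co-receptor, while Slits act on Robo receptors and netrins on Dcc, neogenin and Unc5 receptors. In the developing heart, ephrin-B2 marks arteries and EphB4 veins, and Sema3c and Plxnd1 take part in forming the outflow tract.

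The 6 libraries held 21156793 to 25376220 counts, of which the guidance genes took 0.283% to 0.298%. The labels call the libraries of a group biological replicates and do not say which animals or cultures they came from. All p-values therefore judge a difference between the groups by these 6 libraries alone, and part of the spread between libraries may be technical. Cardiomyocyte markers were present in every library, with a sum over the 9 genes found of 14266 to 14366 CPM (counts scaled to library size with the TMM method) in the controls and 13621 to 14988 CPM with progesterone. The genes behind that sum went both ways (4 of 9 higher, 3 lower, median log2 fold change 0.03). Myh6 fell from 4384 ± 270 to 3498 ± 220 CPM, and Nppa rose from 3547 ± 302 to 4669 ± 235 CPM. Markers of fibroblasts were present too, with a sum over 9 genes of 27517 to 28606 CPM in the controls and 36956 to 39915 CPM with progesterone (5 of 9 higher, 3 lower, median log2 fold change 0.17). In bulk RNA, a change in the number of cells of one type and a change of RNA per cell cannot be told apart.

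Guidance genes moved in both directions with progesterone, and the largest changes were gains of Epha8, Efnb2 and Sema5b and losses of Ntn1, Sema4b and Epha3. Of the 65 genes, 56 had enough counts to be tested, and 42 of them changed at an adjusted p under 0.05 (edgeR's quasi-likelihood test with Benjamini-Hochberg adjustment over all 15075 genes tested). That is 75% of the tested members, against a background of 63% of all genes tested. With progesterone 22 members were higher, where 31.2% of all genes were higher, and 20 members were lower, where 31.8% of all genes were lower. The median log2 fold change was 0.11 over the members and 0.0033 over all genes, and the median size without sign was 0.45 and 0.34. Upper quartile scaling, which moved the median of all genes to 0.10, gave 60.1% of all changed genes as higher, against 49.6% with TMM, and 58.5% of the changed members, against 52.4%.

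At least a 2-fold change was found for 6 members that rose (7.14% of all genes did) and 4 that fell (9.31% of all genes did). The 6 were Epha8, Efnb2, Sema5b, Sema3d, Efna2 and Epha4, and the 4 were Ntn1, Sema4b, Epha3 and Sema3b. Control and progesterone libraries did not overlap in 44 of the 56 tested members, or 78.6%, against 68.6% of all genes tested. Ligands and receptors both went in both directions, with 11 ligands higher and 12 lower of 32 tested, and 11 receptors higher and 8 lower of 24 tested. Semaphorins were lower in 9 and higher in 5 of 20, and Eph receptors were higher in 5 and lower in 3 of 11. Of all genes tested, 31.2% were higher and 31.8% lower, and these differences between families were not tested. In the plot of fold changes by gene, the ephrins, Eph receptors, semaphorins and plexins each have points on both sides of 0. Both tested Robos were higher, but the call of Robo2 was lost under 8 of 15 alternative settings.

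**Figure D1:**
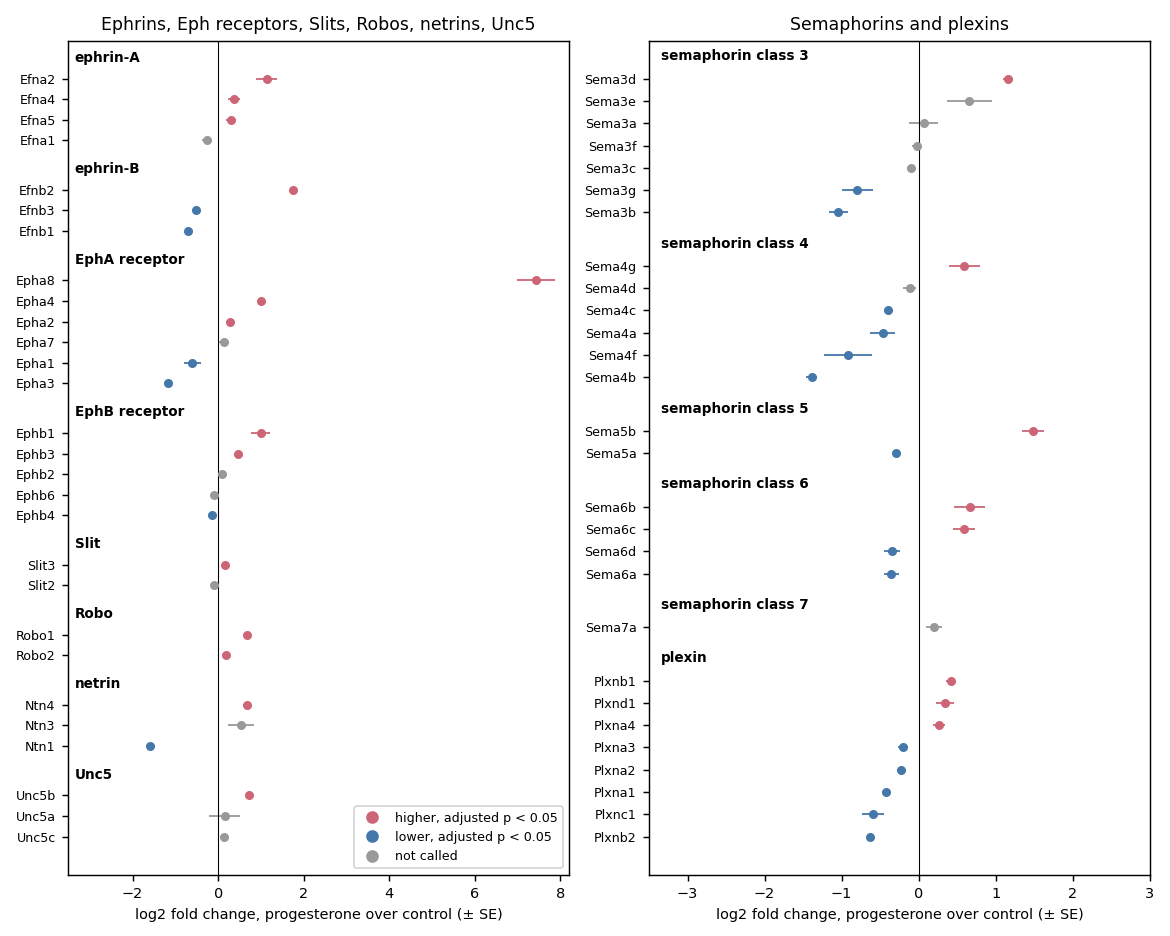
Log2 fold change with progesterone over control (± SE of the edgeR fit) for the 56 tested guidance genes, with ephrins, Eph receptors, Slits, Robos, netrins and Unc5 genes on the left and semaphorins and plexins on the right. The x axes differ, because Epha8 at 7.43 lies far beyond the other members.

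The bases before the start of 4 of these genes are shown, from the 7 of the 10 genes changed at least 2-fold that had a promoter entry. Epha8 and Efnb2 had the largest gains and Sema4b the largest loss among the 7, and Sema3d is shown because it is the only 1 of them with a motif match in these bases. They are RefSeq sequences of the rat assembly GRCr8, 250 bases 5′ to 3′ in the direction of the gene. Capitals mark a match to the steroid receptor element core ACANNNTGT, and lower case the rest. Epha8 lies on the minus strand (chr5:154476967-154477216), Efnb2 on the plus strand (chr16:87484965-87485214), Sema3d on the minus strand (chr4:23460972-23461221) and Sema4b on the plus strand (chr1:143558547-143558796).
Epha8: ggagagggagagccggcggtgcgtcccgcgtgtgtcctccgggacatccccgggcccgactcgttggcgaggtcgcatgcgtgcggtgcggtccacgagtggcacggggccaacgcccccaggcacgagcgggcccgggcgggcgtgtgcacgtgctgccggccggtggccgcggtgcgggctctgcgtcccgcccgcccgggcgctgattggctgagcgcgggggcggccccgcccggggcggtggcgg
Efnb2: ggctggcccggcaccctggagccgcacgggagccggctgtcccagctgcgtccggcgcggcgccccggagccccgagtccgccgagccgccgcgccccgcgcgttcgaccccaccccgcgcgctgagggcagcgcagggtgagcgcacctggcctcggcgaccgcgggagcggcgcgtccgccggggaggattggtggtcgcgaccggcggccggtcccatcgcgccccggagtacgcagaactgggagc
Sema3d: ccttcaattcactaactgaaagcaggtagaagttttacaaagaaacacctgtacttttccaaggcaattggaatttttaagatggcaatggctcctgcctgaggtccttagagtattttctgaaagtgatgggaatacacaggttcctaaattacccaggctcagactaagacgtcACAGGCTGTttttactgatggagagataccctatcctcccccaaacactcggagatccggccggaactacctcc
Sema4b: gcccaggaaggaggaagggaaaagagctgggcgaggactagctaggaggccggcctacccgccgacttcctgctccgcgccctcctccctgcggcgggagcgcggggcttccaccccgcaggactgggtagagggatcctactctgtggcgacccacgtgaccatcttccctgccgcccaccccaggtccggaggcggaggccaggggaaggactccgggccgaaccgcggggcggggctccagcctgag
The stretches of Epha8 and Efnb2 are rich in G and C, at 80% and 80.4% with 40 and 43 CpG, and that of Sema4b has 71.6% with 21 CpG. The stretch of Sema3d differs from them, with 44.8% and 4 CpG, where the median over all promoters was 51.2%. Of the 65 members, 50 had an entry, searched on both strands over 300 bases (250 before to 50 after the start). The motif ACANNNTGT was in 1 of 19 promoters of members that rose (5.26%; Sema3d, 74 bases before the start), 0 of 15 of members that fell, and 6.86% of all 33465 promoters. GGAATG, the core bound by TEAD factors, was in 1 of 19 (5.26%), 2 of 15 (13.3%) and 14.2%. GAAANNGAA, the core of the interferon response element, was in 0 of 19, 2 of 15 (13.3%; Plxnc1 and Sema6a) and 9.71%. A match is a run of letters and not a shown binding site.

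Among the ephrin-B ligands, 1 rose and 2 fell, where 31.2% of all genes tested rose and 31.8% fell. Efnb2 (ENSRNOG00000014648), a transmembrane ligand of EphB receptors and EphA4, lies on chromosome 16 from 86631064 to 86675049 in the table's coordinates, whose rat build has no name in the sources used here. It was read at 33.0, 30.7 and 29.0 CPM in the controls and 112, 96.6 and 101 CPM with progesterone. Every progesterone library lay above every control library, and the fold was 3.34 (30.9 ± 1.97 to 103 ± 7.92 CPM, SD, n = 3; log2 fold change 1.74 ± 0.06 SE, edgeR adjusted p = 8.48e-12). Efnb1 went from 70.2, 76.3 and 70.4 to 47.1, 42.8 and 43.8 CPM, a 1.62-fold fall without overlap (adjusted p = 1.48e-08 by edgeR). Efnb3 went from 77.3, 80.0 and 87.1 to 51.8, 60.6 and 57.2 CPM, a 1.44-fold fall (edgeR adjusted p = 4.24e-06), also without overlap.

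Compared per length, on the authors' FPKM values (fragments per kilobase of gene, scaled for depth), the 3 ephrin-B genes summed to almost the same level in both groups, 55.1 ± 1.17 and 55.7 ± 1.23 FPKM (SD, n = 3; exact two-sided permutation p = 0.6). Within that sum Efnb2 held 14.4%, 12.9% and 12.2% in the control libraries and 46.1%, 41.3% and 42.9% in the progesterone libraries. Efnb2 was the lowest of the 3 in every control library and the highest in every progesterone library. The share of Efnb3 went from 46.8% ± 2.23 to 32.2% ± 3.16 and that of Efnb1 from 40.0% ± 1.64 to 24.4% ± 0.723 (SD, n = 3). For these shares, whose groups do not overlap, the exact permutation p was 0.1, the smallest that 3 against 3 allows.

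**Figure D2:**
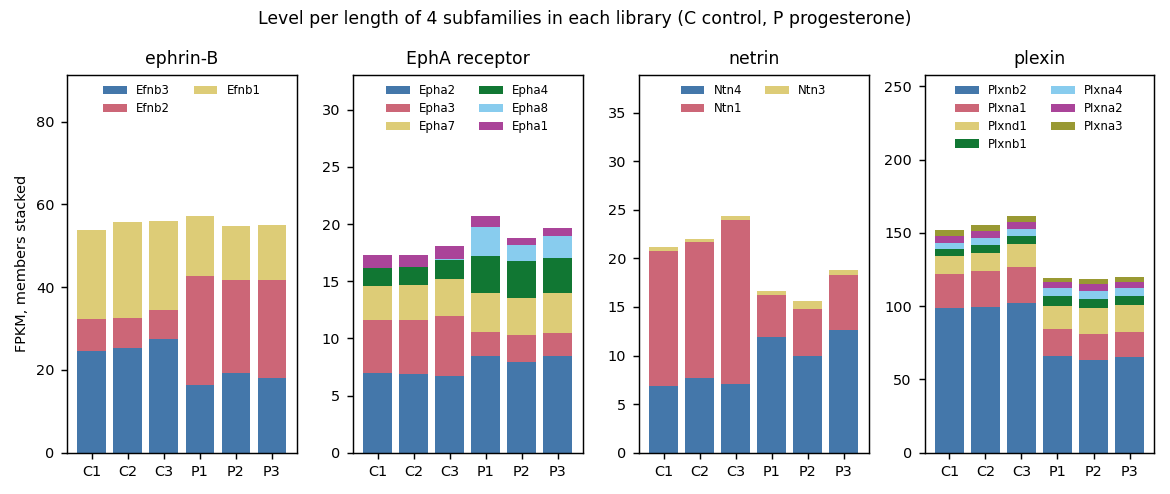
Deposited FPKM of the members of 4 subfamilies (ephrin-B, EphA, netrin, plexin), stacked, in each library (C1 to C3 control, P1 to P3 progesterone), for members with at least 2% of the sum in either group; each panel has its own y axis from 0. The stack of ephrin-B genes has nearly the same height in all 6 libraries while the part of Efnb2 grows, and in the netrin stack the larger part passes from Ntn1 to Ntn4.

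Ephrin-A ligands are anchored in the membrane by a lipid and bind EphA receptors. Efna5, the highest of them per length (16.2 ± 2.44 FPKM in the controls and 20.1 ± 2.35 with progesterone), was read at 12.6, 9.45 and 10.5 CPM and then at 14.3, 11.6 and 14.4 CPM. Its groups overlap, since 1 progesterone library lay below 1 control library, and the 1.24-fold rise had an edgeR adjusted p of 0.0375. That call was lost without control replicate 2 (adjusted p = 0.183), control replicate 3 (0.0985), progesterone replicate 1 (0.116) or progesterone replicate 3 (0.134), and with DESeq2 (0.0527). Efna2 was low and went from 1.3, 0.902 and 1.44 to 2.94, 2.21 and 2.86 CPM, a 2.19-fold rise without overlap (log2 fold change 1.13 ± 0.24, edgeR adjusted p = 0.000709). Efna4 went from 6.18 ± 1.05 to 8.01 ± 0.122 CPM (edgeR adjusted p = 0.0282). The call of Efna4 was lost without control replicate 1 (adjusted p = 0.0851), control replicate 3 (0.114), progesterone replicate 2 (0.0607) or progesterone replicate 3 (0.0592). Efna1, at 9.59 ± 1.02 and 8.05 ± 0.284 CPM, did not pass the edgeR test (adjusted p = 0.0694), but did without control replicate 1 (0.0493).

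Among EphA receptors the outstanding gene was Epha8 (ENSRNOG00000013036), a receptor studied mainly in the developing midbrain. Its counts were 1, 0 and 1 in the control libraries and 159, 87 and 131 in the progesterone libraries. Pooled over a group, 2 counts stood against 377, a ratio of 206 after scaling for library size, with a 95% counting interval of 56.6 to 1707 that covers counting error only. The fitted log2 fold change was 7.43 ± 0.44 (edgeR adjusted p = 1.34e-09), ran from 6.94 to 7.79 when any 1 library was left out, and depends on the prior count at so few control counts. The gene passed the filter on low counts only through the progesterone libraries, so its p-value adds no support beyond the counts themselves. In CPM the gene was near 0 in every control library (0.0394, 0 and 0.0438) and at 7.53, 4.1 and 5.67 with progesterone. Per length it remained low, at 1.95 ± 0.585 FPKM, yet made up 9.83% ± 2.49 of the EphA sum with progesterone (SD, n = 3).

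In the table's coordinates the row of Epha8 spans 155295314 to 155316495 on the minus strand of chromosome 5. Within 50 kb of it lie 4 other rows. Zbtb40 is 30469 bases away and did not pass the test (counts of 406, 393 and 366 in the controls and 336, 309 and 382 with progesterone; edgeR adjusted p = 0.568). The other 3 encode the chains of complement C1q, which macrophages make, and they were singled out after their values were seen. C1qa, 31170 bases away on the same strand, had 13, 6 and 26 counts and then 77, 83 and 95 (6.11-fold higher, edgeR adjusted p = 8.44e-05). The fold of C1qa was 4.72 without control replicate 2 and 9.86 without control replicate 3. C1qc, at 36921 bases, had 3, 2 and 3 counts and then 27, 17 and 28 (9.41-fold, edgeR adjusted p = 1.13e-05). C1qb, at 43310 bases, had 1, 1 and 10 counts and then 27, 20 and 18 (5.75-fold, edgeR adjusted p = 0.00295). The fold of C1qb was 4.09 without control replicate 1 and 21.5 without control replicate 3. Through the control libraries alone none of these 3 genes would have passed the filter on low counts. Their p-values therefore add no support beyond the counts themselves. All 3 progesterone libraries lay above all controls for each of the 3 genes, as they did for Epha8. Groups that did not overlap, in either direction, were found for 68.6% of all genes tested.

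**Figure D3:**
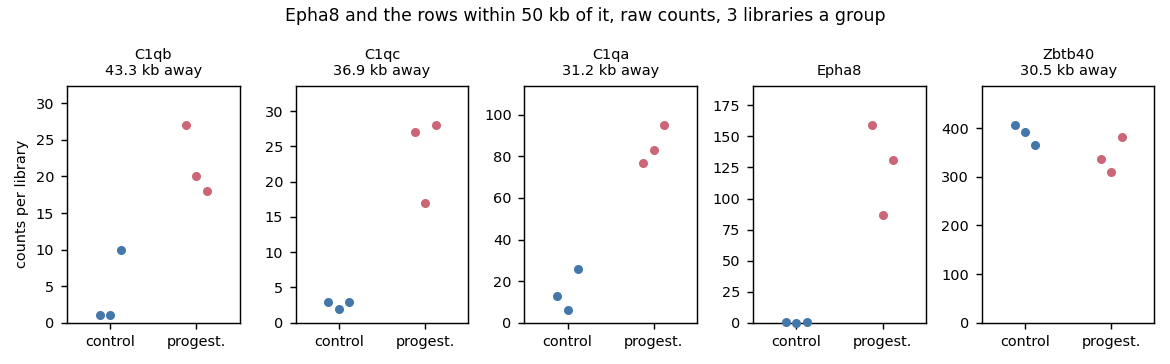
Raw counts of Epha8 and of the 4 rows within 50 kb of it in the 3 control and 3 progesterone libraries, each panel with its own y axis from 0. The 3 C1q genes and Epha8 are higher in every progesterone library than in every control library, and Zbtb40 overlaps between the groups. In CPM, 68.6% of all genes tested had groups that did not overlap, in either direction.

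C1qa also belongs to a list of 10 leukocyte markers. Of its 6 tested members 5 were higher and 1 was lower. The lower gene was Cd74, which fell 7.71-fold (12.6 ± 1.52 to 1.63 ± 0.545 CPM). The median log2 fold change of the 6 was 1.97. The summed level of the list was 29.8 to 47.8 CPM in the controls and 149.7 to 170.4 CPM with progesterone. Most of that rise was in Lyz2, which went from 7.06 ± 3.33 to 109.7 ± 6.46 CPM. The T cell marker Cd3e had no count in any library. Smooth muscle and pericyte markers moved as well, with 9 of 10 higher and 1 lower, a median of 1.23 and sums of 2244 to 2620 and 5368 to 5997 CPM. Endothelial markers were low and did not rise together, with 2 of 8 tested higher, 3 lower, a median of -0.35 and sums of 167 to 217 and 133 to 181 CPM, and Cldn5, an endothelial junction gene, had no count. Epicardial and mesothelial markers went both ways, with 3 of 8 higher, 4 lower, a median of -0.13 and sums of 208 to 223 and 246 to 273 CPM. Of the 8 Schwann cell and neuron markers 4 were tested, with 1 higher (Sox10, 4.47-fold), 1 lower, a median of -0.04 and sums of 35.7 to 45.8 and 27.9 to 32.7 CPM. The background for each of these lists was 31.2% of all genes tested higher and 31.8% lower. The part of these cell types in the changes of the guidance genes was not tested.

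The other EphA receptors went both ways. Epha3 went from 28.6, 29.6 and 32.8 to 13.0, 14.6 and 12.9 CPM, a 2.25-fold fall without overlap (30.3 ± 2.21 to 13.5 ± 0.996 CPM, log2 fold change -1.17 ± 0.08, edgeR adjusted p = 4.16e-09). Epha4, which binds ephrins of both classes, went from 9.69, 10.0 and 10.8 to 20.7, 20.6 and 19.8 CPM, a 2.01-fold rise without overlap (edgeR adjusted p = 3.76e-08). Within the EphA sum, the share of Epha3 went from 27.9% ± 1.34 to 11.1% ± 1.31 and that of Epha4 from 9.09% ± 0.296 to 16.3% ± 0.842, so their order per length was reversed. Epha2, the highest EphA gene per length, was read at 27.2, 27.0 and 26.3 CPM and then at 33.1, 31.1 and 33.1 CPM, a 1.21-fold rise without overlap (edgeR adjusted p = 0.00106). Epha1 went from 3.65 ± 0.11 to 2.4 ± 0.475 CPM (edgeR adjusted p = 0.012), a call lost without progesterone replicate 2 (0.0522). The row of Epha1 overlaps by 145 bases that of Zyx on the opposite strand, which was higher (248 ± 16.7 to 312 ± 15.8 CPM). It is not stated whether counting used strand, so reads of the pair may have been mixed. Epha7, at 9.26 ± 0.32 and 10.2 ± 0.362 CPM, did not pass the edgeR test (adjusted p = 0.277).

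EphB receptors bind the ephrin-B ligands, and their summed level differed little between the groups (46.7 ± 0.975 and 47.6 ± 0.793 FPKM, exact permutation p = 0.3). Ephb4, the highest of them, was read at 122, 117 and 122 CPM and then at 105, 109 and 111 CPM, a 1.11-fold fall without overlap (edgeR adjusted p = 0.00655) that did not pass with upper quartile scaling (adjusted p = 0.296). Ephb3 went from 36.9, 39.0 and 40.5 to 54.9, 52.4 and 53.0 CPM, a 1.38-fold rise without overlap (edgeR adjusted p = 2.24e-06). The share of Ephb4 in the EphB sum was 63.4% ± 1.2 in the controls and 56.0% ± 0.654 with progesterone, and that of Ephb3 20.7% ± 0.74 and 27.9% ± 1.14. Ephb1 was low in both groups and went from 1.22, 0.988 and 1.49 to 2.56, 2.45 and 2.38 CPM (1.99-fold, edgeR adjusted p = 0.0013). Ephb2 (14.8 ± 0.895 and 15.8 ± 1.25 CPM) and Ephb6 (17.2 ± 0.376 and 16.1 ± 1.64 CPM), the latter a receptor without kinase activity, did not pass the edgeR test (adjusted p = 0.382 and 0.385).

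Among the secreted class 3 semaphorins, Sema3d rose and Sema3b and Sema3g fell. Sema3d, known for its part in patterning the pulmonary veins, went from 16.2, 17.8 and 16.2 to 38.4, 38.3 and 35.5 CPM, a 2.24-fold rise without overlap (log2 fold change 1.16 ± 0.07, edgeR adjusted p = 6.88e-10). Sema3b went from 10.6, 10.0 and 12.4 to 5.16, 5.08 and 5.76 CPM, a 2.06-fold fall without overlap (edgeR adjusted p = 2.76e-06). Sema3g went from 3.13 ± 0.343 to 1.8 ± 0.131 CPM (1.74-fold lower, edgeR adjusted p = 0.00235).

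Sema3c, a gene of outflow tract development, was by far the highest class 3 gene, with 71.1% ± 1.52 of the class sum in the controls and 67.8% ± 1.52 with progesterone. It was read at 243, 241 and 228 CPM and then at 215, 236 and 210 CPM, groups that overlap in 1 progesterone library. It did not pass the edgeR test (log2 fold change -0.11 ± 0.05, adjusted p = 0.0743). It did without progesterone replicate 2 (0.0107) or control replicate 3 (0.0303). It also did with the replicate block (0.0355), with library size scaling (0.0349) and with no filter (0.0334). Sema3a (3.39 ± 0.479 and 3.55 ± 0.651 CPM) and Sema3f (56.0 ± 4.32 and 55.1 ± 2.65 CPM) did not pass it either (edgeR adjusted p = 0.781 and 0.736). Sema3e, at 0.953 ± 0.313 and 1.5 ± 0.296 CPM, missed the threshold (edgeR adjusted p = 0.0635). It passed without control replicate 3 (0.0279) and with upper quartile scaling (0.035).

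Class 4 semaphorins are membrane proteins that act mostly on B plexins, and their sum fell from 29.4 ± 1.15 to 18.1 ± 0.772 FPKM. Of the 6 members 4 were lower and 1 higher, where 31.8% of all genes tested were lower and 31.2% higher. Sema4b (ENSRNOG00000025167) went from 48.6, 45.7 and 47.5 to 16.2, 17.8 and 20.1 CPM, a 2.62-fold fall without overlap (47.3 ± 1.47 to 18.0 ± 1.98 CPM, log2 fold change -1.39 ± 0.07, edgeR adjusted p = 2.45e-10). It was the highest class 4 gene per length in the controls (13.6 ± 0.449 FPKM) and lay below Sema4c with progesterone (5.18 ± 0.563 against 7.29 ± 0.253 FPKM). Sema4c fell too, from 41.7, 39.7 and 42.6 to 30.6, 30.8 and 32.6 CPM, by 1.32-fold and without overlap (edgeR adjusted p = 2.42e-05). The row of Sema4b (chromosome 1, 141986145 to 142014398, plus strand) ends 559 bases from that of Cib1, a calcium-binding protein gene on the opposite strand. Cib1 also fell, from 51.0 ± 1.35 to 24.4 ± 0.798 CPM (2.09-fold, edgeR adjusted p = 2.58e-10), and whether reads of the pair were separated is not known.

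Calls of the less abundant class 4 genes depended on single libraries. Sema4a went from 4.81 ± 0.271 to 3.47 ± 0.521 CPM (edgeR adjusted p = 0.0224), a call lost without control replicate 1 (adjusted p = 0.0562), control replicate 3 (0.0563) or progesterone replicate 1 (0.0926) and with upper quartile scaling (0.0606). Sema4f, near the filter, had 79 counts over the controls and 38 with progesterone (1.89-fold lower, edgeR adjusted p = 0.0171). Its call was lost without control replicate 1 (adjusted p = 0.0755) or progesterone replicate 2 (0.0632) and with DESeq2 (0.0778). Sema4g was the 1 class 4 gene that rose, from 2.27 ± 0.29 to 3.43 ± 0.652 CPM (edgeR adjusted p = 0.0188), a call lost without control replicate 2 (0.0632), control replicate 3 (0.0585), progesterone replicate 1 (0.0737) or progesterone replicate 3 (0.069). Sema4d, known from immune cells, was at 17.8 ± 1.16 and 16.4 ± 0.675 CPM and did not pass the edgeR test (adjusted p = 0.21).

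Classes 5 and 6 are transmembrane semaphorins. Sema5b went from 4.02, 2.96 and 4.12 to 10.5, 10.3 and 10.3 CPM, a 2.8-fold rise without overlap (log2 fold change 1.48 ± 0.14, edgeR adjusted p = 2.46e-07). Its relative Sema5a, the higher of the pair, fell from 133, 144 and 137 to 110, 109 and 118 CPM, by 1.22-fold and without overlap (edgeR adjusted p = 5.59e-05). The share of Sema5b in their summed FPKM thus went from 7.96% ± 1.52 to 22.8% ± 0.8, while the sum itself was 14.2 ± 0.346 and 13.8 ± 0.427 FPKM. Class 6, whose members act on A plexins, divided by level. Sema6a, the highest per length, fell from 15.2, 16.0 and 17.9 to 11.5, 12.8 and 14.0 CPM (1.28-fold, edgeR adjusted p = 0.00496), and Sema6d from 27.8 ± 3.93 to 21.8 ± 1.63 CPM (1.27-fold, edgeR adjusted p = 0.00836). The lower Sema6b rose from 2.08 ± 0.362 to 3.29 ± 0.197 CPM (1.58-fold, edgeR adjusted p = 0.00879) and Sema6c from 4.88 ± 0.446 to 7.36 ± 0.752 CPM (1.51-fold, edgeR adjusted p = 0.00185). The groups of all 4 did not overlap, as was found for 68.6% of all genes tested. Sema7a, the lipid-anchored semaphorin, was read at 12.6, 13.5 and 16.5 CPM and then at 15.9, 15.1 and 17.9 CPM. Its groups overlap and it did not pass the edgeR test (adjusted p = 0.116), but it did without control replicate 3 (0.0165) and with upper quartile scaling (0.0234).

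**Figure D4:**
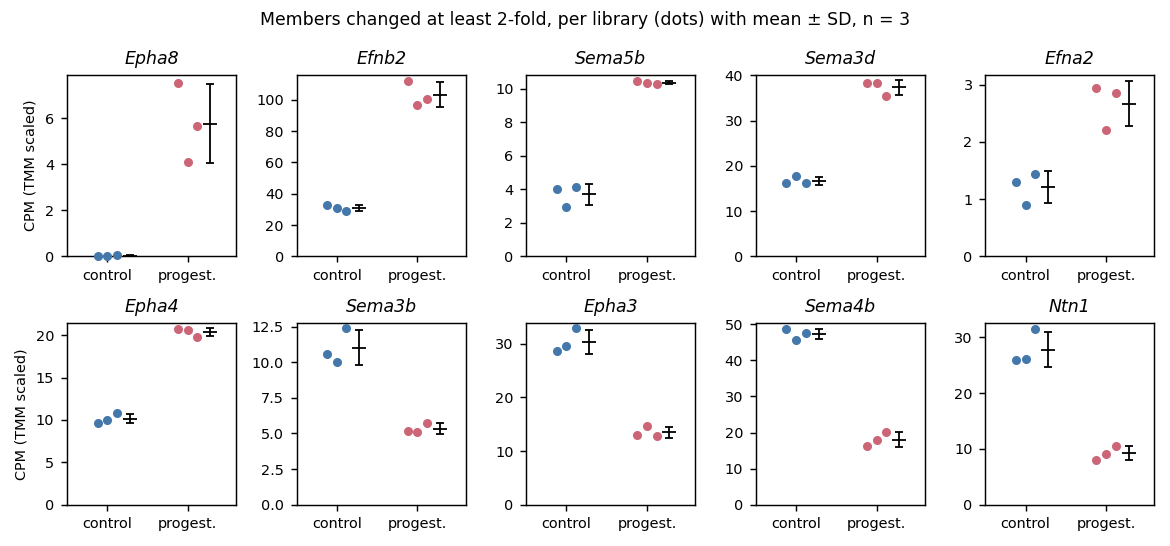
CPM of the 10 guidance genes that changed at least 2-fold, per library (dots) with mean ± SD (n = 3), each panel with its own y axis from 0. In all 10 panels the 3 progesterone libraries lie on one side of the 3 control libraries. The genes were chosen for their change in these same libraries, which favours such a separation. The groups did not overlap in 68.6% of all genes tested.

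Of the 8 tested plexins, the receptors of semaphorins, 5 were lower and 3 higher, where 63% of all genes tested changed in either direction. Plxnb2, which binds class 4 semaphorins, was the highest guidance gene per length in the controls and went from 648, 655 and 669 to 434, 415 and 428 CPM. The 1.54-fold fall was without overlap (log2 fold change -0.63 ± 0.04, edgeR adjusted p = 1.91e-09) and lowered its level from 100.1 ± 1.56 to 64.8 ± 1.55 FPKM. Plxnb1, the other tested B plexin, rose from 32.3, 33.8 and 34.2 to 45.6, 42.5 and 45.8 CPM (1.34-fold, edgeR adjusted p = 1.24e-05). The plexin sum fell from 157.6 ± 4.91 to 120.3 ± 0.861 FPKM, and the share of Plxnb2 in it from 63.6% ± 1.02 to 53.8% ± 1.03.

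Plxna1, the highest A plexin and a partner of neuropilins, fell from 205, 218 and 225 to 166, 159 and 156 CPM, by 1.35-fold and without overlap (edgeR adjusted p = 7.72e-07). Plxna2 (55.5 ± 2.6 to 47.2 ± 1.33 CPM, edgeR adjusted p = 0.00113) and Plxna3 (28.8 ± 1.73 to 25.0 ± 0.682 CPM, 0.014) fell as well, the latter not without control replicate 2 (0.0762) nor with upper quartile scaling (0.163). Plxna4 rose from 25.8 ± 2.07 to 31.1 ± 1.9 CPM (edgeR adjusted p = 0.00527). Plxnc1, the receptor of Sema7a, fell from 5.87, 6.35 and 6.83 to 3.84, 4.42 and 4.33 CPM, by 1.51-fold and without overlap (edgeR adjusted p = 0.00227).

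Plxnd1, a vascular plexin, is the 1 tested plexin whose groups overlap, at 74.8, 77.2 and 95.3 CPM in the controls and 93.4, 108 and 110 CPM with progesterone. Its 1.26-fold rise lay at the threshold (edgeR adjusted p = 0.0491). The call was lost without control replicate 1 (adjusted p = 0.105), control replicate 2 (0.12), progesterone replicate 2 (0.155) or progesterone replicate 3 (0.123), and with library size scaling (0.0517).

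Ntn1 (ENSRNOG00000003947, chromosome 10, 54761871 to 54967585), the secreted cue that draws or repels axons, was the highest netrin per length in the controls. It went from 25.9, 26.1 and 31.4 to 8.0, 9.13 and 10.6 CPM. The fall was 3-fold and without overlap (27.8 ± 3.14 to 9.25 ± 1.31 CPM, log2 fold change -1.59 ± 0.11, edgeR adjusted p = 2.36e-08). Ntn4, a netrin of basement membranes, went the other way, from 15.3, 17.3 and 15.8 to 26.7, 22.3 and 28.5 CPM, a 1.6-fold rise without overlap (edgeR adjusted p = 9.23e-06). Of the summed netrin FPKM, Ntn1 held 66.1% ± 2.88 in the controls and 29.1% ± 2.81 with progesterone, and Ntn4 31.9% ± 2.93 and 67.2% ± 4.19. Ntn1 was thus above Ntn4 per length in every control library and below it in every progesterone library. Ntn3 was near the filter (0.936 ± 0.104 and 1.37 ± 0.529 CPM) and did not pass the edgeR test (adjusted p = 0.135).

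The netrin receptor Unc5b, which is found on endothelium, was the second highest guidance gene per length in the controls and the highest with progesterone. It went from 378, 360 and 362 to 610, 613 and 585 CPM, a 1.64-fold rise without overlap (log2 fold change 0.72 ± 0.04, edgeR adjusted p = 5.99e-10), or from 65.0 ± 1.95 to 106.7 ± 2.76 FPKM. Unc5b and Plxnb2 exchanged the first rank, with Plxnb2 above it in every control library and below it in every progesterone library. Unc5b made up 98.2% ± 0.255 and 98.8% ± 0.079 of the Unc5 sum. Unc5a (0.639 ± 0.264 and 0.703 ± 0.0502 CPM) and Unc5c (9.21 ± 0.623 and 10.1 ± 0.39 CPM) did not pass the edgeR test (adjusted p = 0.747 and 0.265). Dcc, the classical netrin receptor, had no count in any of the 6 libraries, while its relative Neo1 was at 94.5 ± 4.35 and 86.4 ± 1.54 CPM (1.09-fold lower, edgeR adjusted p = 0.0209). The call of Neo1 was lost without control replicate 3 (adjusted p = 0.0857) or progesterone replicate 3 (0.084), with DESeq2 (0.0511) and with upper quartile scaling (0.534).

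Of the Slit and Robo genes, the receptor Robo1 changed most. It went from 39.8, 40.7 and 40.8 to 64.9, 62.7 and 67.1 CPM, a 1.61-fold rise without overlap (log2 fold change 0.68 ± 0.05, edgeR adjusted p = 7.61e-09). Robo2 rose from 18.2 ± 0.53 to 20.7 ± 0.307 CPM (1.14-fold, edgeR adjusted p = 0.0282). That call was lost without control replicate 2 (adjusted p = 0.0615), control replicate 3 (0.0882), progesterone replicate 2 (0.0611) or progesterone replicate 3 (0.065), with no filter (0.0736) and with DESeq2 (0.0923). The ligand Slit3 went from 124, 127 and 132 to 146, 136 and 147 CPM, a 1.12-fold rise without overlap (edgeR adjusted p = 0.00528). Slit2, at 73.8 ± 1.37 and 69.0 ± 2.76 CPM, did not pass the edgeR test (adjusted p = 0.0768), but did without progesterone replicate 3 (0.0406). Slit3 was the higher of the pair, with 69.6% ± 0.643 and 73.3% ± 0.867 of the Slit sum.

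Across all tested members, mean levels per length ran from 0.0094 to 100.1 FPKM in the controls (median 4.51) and from 0.145 to 106.7 FPKM with progesterone (median 4.12). Sema3c and Ephb4 kept the third and the fourth rank in both groups. Efnb3, Plxna1 and Slit3 held ranks 5, 6 and 7 in the controls and 9, 8 and 5 with progesterone, while Ntn1 went from rank 10 to 27 and Sema4b from 11 to 26. In the controls the means of Slit3 and Efnb1 (22.1 ± 0.73 and 22.1 ± 1.02 FPKM) did not differ beyond their spread.

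The 9 guidance genes that failed the filter had few counts. Over all 6 libraries Efna3 had 53 counts, Robo4 26, Plxnb3 21, Slit1 20, Epha5 17, Ntn5 12, Epha10 5, Unc5d 3 and Robo3 2. Robo4 is an endothelial receptor and Robo3 a neuronal one. Tested with no filter, 0 of the 9 passed edgeR's test, and 0 had an unadjusted p under 0.05. The lowest adjusted p was that of Epha10 (0.113), and no other tool was run on them.

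Co-receptors and effectors of the same pathways were followed with a list of 55 genes written from general knowledge, of which 54 were in the table and 50 were tested. Of these, 15 were higher and 15 lower by edgeR (60% changed, against 63% of all genes tested, with a median log2 fold change of 0.0093). With upper quartile scaling 21 were higher and 9 lower. Both neuropilins rose. Nrp1 went from 177, 182 and 194 to 263, 261 and 269 CPM (1.43-fold, edgeR adjusted p = 4.95e-08), and Nrp2 from 318, 324 and 337 to 409, 413 and 422 CPM (1.27-fold, edgeR adjusted p = 2.32e-06), each without overlap. Of the other partner genes that passed the edgeR test, the 6 with the largest changes were higher. Enah, a regulator of actin filaments, rose from 137 ± 5.45 to 349 ± 8.27 CPM (2.55-fold) and Trio, which acts downstream of netrin receptors, from 79.5 ± 2.6 to 158 ± 3.74 CPM (1.98-fold). Vav3, an exchange factor downstream of Eph receptors, went from 6.1 ± 0.342 to 13.5 ± 0.849 CPM (2.21-fold), and Mical1, which oxidises actin downstream of plexins, from 19.1 ± 1.5 to 35.6 ± 3.16 CPM (1.86-fold). The adhesion molecules Nrcam (0.634 ± 0.151 to 2.48 ± 0.711 CPM, 3.9-fold) and L1cam (0.556 ± 0.15 to 1.67 ± 0.634 CPM, 2.97-fold) were low in both groups. Among these 6 the highest edgeR adjusted p was 0.000839, that of L1cam. Its counts were 17, 9 and 14 in the controls and 50, 24 and 35 with progesterone. Through the control libraries alone L1cam would not have passed the filter on low counts. That p-value therefore adds no support beyond the counts themselves.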

How the data were processed

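RNA-seq of mRNA-enriched RNA was measured in 3 control and 3 progesterone libraries, grouped by their titles and built with a TruSeq kit, per the labels' protocols. The authors deposited raw counts per gene and FPKM values per gene. Bowtie 0.12.2 and the mouse build mm8 are named, per the submitters' processing notes, although the rows carry rat Ensembl identifiers. Not given in the sources used here are the rat build, the annotation, the counter and its strand setting. Nor is it stated how reads shared by similar family members were divided, which could shift counts between them.

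The quasi-likelihood test of edgeR 4.0.16 (R 4.3.3; robust glmQLFit, glmQLFTest) was run on the counts of all genes that passed filterByExpr (minimum count 10, minimum total 15). It used TMM scaling, no covariates and Benjamini-Hochberg adjustment, with calls at 0.05. The biological coefficient of variation was 9.04%, and TMM factors lay between 0.984 and 1.01. Folds come from the fitted log2 fold change. Levels of different genes were compared on FPKM alone, and shares were compared with exact two-sided permutation tests. Only the edgeR step was tested on simulated data, in which a far smaller share of genes changed than here.

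Replicates were compared first: Pearson's r of log2 CPM across genes, which are not independent replicates, was 0.993 to 0.994 within and 0.924 to 0.931 between groups. No pair of replicates agreed within sampling noise (chi-square divided by its degrees of freedom, 5.57 to 9.79), and each was kept as a separate sample. Library totals were 21156793 to 25376220 counts, and counting intervals cover counting error only.

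Values in every library are given for members changed at least 2-fold at an adjusted p under 0.05 and for the highest member per length of each subfamily; of the partner genes, Nrp1, Nrp2, Dcc, Neo1 and the 6 largest changes among called genes are named. Members and lists were chosen with earlier results of these data known. Alternatives changed the scaling (RLE, upper quartile, library size), the filter (none, or 1 CPM in at least 3 libraries), the replicates (each left out; the number as a block) or the tool (DESeq2 1.42.0; limma 3.58.1 on log2(FPKM + 1) and on log2(FPKM + 0.1)). Promoters are RefSeq sequences of GRCr8.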

Additional observations from a re-analysis of the deposited data

How the results depend on the processing

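Of the 42 guidance genes that changed, 32 kept their call under all 15 alternatives, and none of the 42 reversed its direction under any of them. Efna4, Efna5, Epha1, Ephb4, Plxna3, Plxnd1, Robo2, Sema4a, Sema4f and Sema4g lost it under at least 1, and the cause was not tested. With limma on log2(FPKM + 1), Efna5 (adjusted p = 0.0652), Plxna3 (0.0723) and Robo2 (0.166) were not called and Efna1 was (0.0397). A pseudocount lowers the folds of low genes by construction: the log2 fold change of Epha8 was 1.53 on log2(FPKM + 1) and 4.19 on log2(FPKM + 0.1). Leaving out each replicate in turn gave 17 to 20 guidance genes higher and 19 to 21 lower, and 14 to 15 partner genes higher and 12 to 15 lower. Upper quartile scaling gave 9 partner genes lower, where TMM scaling gave 15. Same-numbered replicates share only a number: their deviations correlated at 0.087, 0.0267 and 0.0216, and 2 of 3 controls correlated best with their own number. With the replicate block, 22 guidance genes were higher and 21 lower, the added one being Sema3c, and 16 partner genes were higher and 15 lower. The 9 guidance genes that failed the filter had at most 53 counts over all libraries, and low members such as Sema4f (79 counts over the controls, 38 with progesterone) rest on few counts.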
